A study of Rattus norvegicus with 88 samples.

Results

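The 10 genes described here are mitochondrially encoded respiratory chain genes of the rat, named by a list of identifiers. Whether the list holds every such gene could not be checked here. Their messenger RNA was followed through RNA-Seq libraries of the infralimbic (IL) part of the medial prefrontal cortex. All 10 were found among the 17252 genes of the expression table. The list used no measured value, although it was drawn up with earlier results of these data known.

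Mitochondria keep a small circular genome of their own, which encodes core subunits of respiratory complexes I, III, IV and V. It is copied into long transcripts from each strand that are then cut into single RNAs, so neighbouring genes share their transcription. Nearly all of its protein genes are read from one strand, while Mt-nd6 is read from the opposite strand, and its messenger RNA is known to lack a poly(A) tail for the most part. Neurons draw most of their ATP from this chain, and mitochondrial messages are abundant in brain tissue.

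The tissue came from Heterogeneous Stock (HS) rats, an outbred population bred from inbred founder strains, that had no behavioral testing and no drug. Each rat gave 1 library of polyadenylated RNA from IL dissected on both sides. Of the 81 libraries kept by the study, 40 were from females and 41 from males, spread over rat batches 2 to 6, of which batch 5 held a single rat. A further 7 libraries, marked as removed in the labels, were not analysed here. The labels give no age per rat, and the labelled tissue could not be checked against markers because no other gene of the table could be tied to a symbol.

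Values are log2 of an adjusted count plus 1, where the adjusted count is an estimated read count scaled between libraries by their upper quartile. The names of the table's columns ascend in 3 separate stretches of 22, 16 and 43 libraries, called column runs 1, 2 and 3. What the runs stand for is not given in the labels. Runs and batches overlapped unevenly: 15 of the 16 rats of batch 2 were in run 1, all rats of batches 4, 5 and 6 were in run 3, and only batch 3 was spread over the runs, with 7, 15 and 3 rats. Depth, the reads behind the adjusted counts, was estimated at 17.9 ± 3.77 M reads per library (SD, n = 81), from 5.95 M in male 14 to 31.8 M.

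Mt-co1 (ENSRNOG00000034234), a catalytic subunit of complex IV, had the highest adjusted count of the whole table in 74 of 81 libraries. Its log2 level was 18.60 ± 0.22 (SD, n = 81), and a median of 29.9% of the counts of the 10 genes were its own. The 9 genes other than Mt-nd6 were all among the 12 rows of highest mean. The table gives no gene lengths, so this order is one of reads and not of RNA molecules.

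The other complex IV subunits were lower. Mt-co3 (ENSRNOG00000030700) ranged from 16.21 to 17.79 log2 units around a median of 17.27, and Mt-co2 (ENSRNOG00000030371) from 16.16 to 17.33 around 16.85. Mt-atp6 (ENSRNOG00000031979), part of the proton channel of ATP synthase (complex V), ran from 16.14 to 17.94 with a median of 17.43. Mt-cyb (ENSRNOG00000031766), the cytochrome b of complex III, ran from 15.25 to 17.39 with a median of 16.97. The ranges of these genes overlapped widely. That of Mt-co1, from 17.38 to 19.11, reached down into those of Mt-co3 and Mt-atp6 only through 1 library, female 35. Without it the lowest Mt-co1 was 18.09, above the highest values of Mt-atp6 and Mt-co3.

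Complex I, which takes electrons from NADH, is represented by 5 genes of the list. Mt-nd1 (ENSRNOG00000030644), Mt-nd2 (ENSRNOG00000031033) and Mt-nd4 (ENSRNOG00000029707), all membrane subunits of that complex, had medians of 16.61, 16.53 and 16.72 log2 units. Mt-nd5 (ENSRNOG00000029971), another membrane subunit, was lower at a median of 15.57, between 13.44 and 16.18. Mt-nd6 (ENSRNOG00000029042) stood far from all of them: its levels ran from 7.18 to 10.35 around a median of 9.22, and by its mean it was row 6036 of the table. A median of 206 adjusted counts was found for the average of the other 9 genes (as the mean of their log2 levels) for each count of Mt-nd6.

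Mt-nd6, the member read from the opposite strand, was thus also the only one outside the top of the table. The libraries were made from poly(A) RNA, and whether they kept strand is not given in the sources used here, so reads of Mt-nd6 cannot be told apart from reads of the opposite strand in that stretch. No row of the table was identical to a member, but reads shared with nuclear copies of mitochondrial sequence could not be examined. Counting error was small even for Mt-nd6, with a median SD of 0.06 log2 units and 0.21 in male 14, where it rested on about 48.1 reads.

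**Figure D1:**
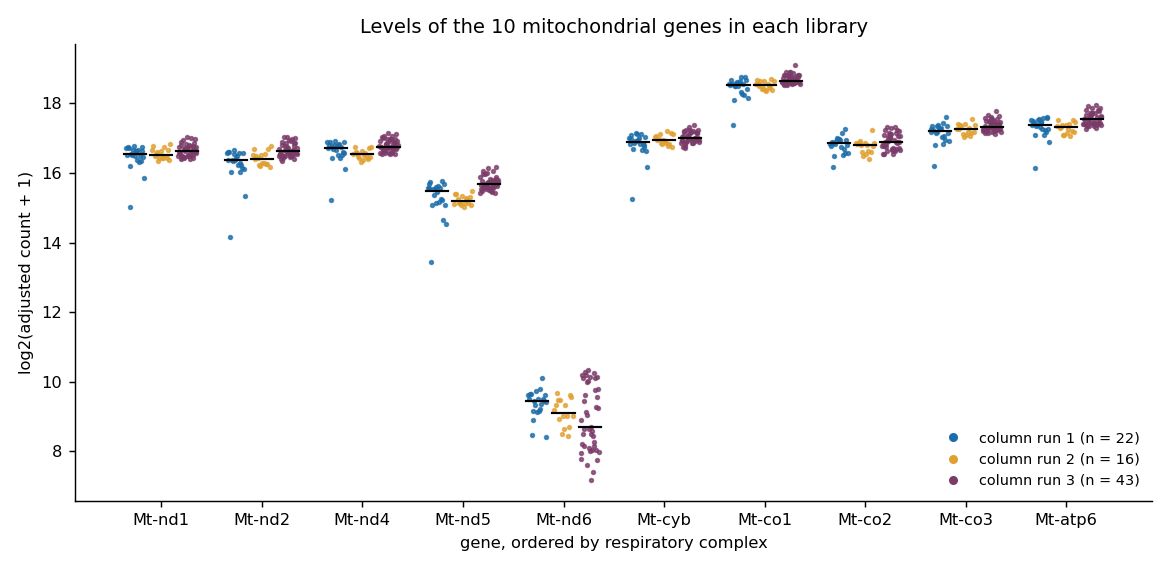
Log2(adjusted count + 1) of the 10 mitochondrial genes, grouped along the x axis by respiratory complex (I, III, IV, V). Each point is 1 library, colored by column run, and black bars are medians. Mt-co1 is highest, Mt-nd6 lies near 9, and its points in run 3 spread from 7.18 to 10.35 while the other genes stay in narrow bands apart from 1 low library of run 1.

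Together the 10 genes held 7.53% ± 1.08 of all adjusted counts (SD, n = 81), and over 5% in 80 of 81 libraries. Mt-co1 alone held 2.25% ± 0.30, Mt-nd5 0.270% ± 0.063 and Mt-nd6 0.00347% ± 0.00169. The lowest share, 3.02%, was that of female 35 of batch 3 in run 1, and the next lowest was 5.17% in male 41. At the other end stood male 24 of batch 3 in run 3, with 10.2%. In female 35 each gene but Mt-nd6 was at its lowest of all 81 libraries, and without it the share was 7.59% ± 0.96 (n = 80). Results that rest on female 35 are given with and without it.

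The share differed by column run. In run 1 it ran from 3.02% to 8.15% with a median of 7.10%, in run 2 from 5.97% to 8.0% with a median of 6.91%, and in run 3 from 7.07% to 10.2% with a median of 7.96%. The ranges overlapped, but run 3 had no library under 7%. Within batch 3, where the runs can be compared without a change of batch, the 3 libraries of run 3 held 8.68%, 8.87% and 10.2%, the 15 of run 2 held 5.97% to 8.0% (median 6.91%), and the 7 of run 1 held 3.02% to 7.81% (median 7.02%). All 3 libraries of run 3 were above each library of the other runs of that batch.

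The mean share within batch 3 was 2.65 percentage points higher in run 3 than in run 1 (exact permutation test, two-sided, p = 0.0167, adjusted over 3 pairs of runs p = 0.025) and 2.49 points higher than in run 2 (exact permutation test, p = 0.00245, adjusted p = 0.00735). Runs 2 and 1 differed by 0.16 points (exact permutation test, p = 0.682). With each of the 3 libraries of run 3 left out in turn, the difference from run 1 stayed between 2.16 and 2.94 points. Its adjusted p from the exact permutation test was 0.0833 each time. With so few libraries left in run 3 this test could not pass whatever the values, so nothing is concluded from that p. Without female 35 the share of run 2 was 0.44 points lower than that of run 1 (exact permutation test, adjusted p = 0.136).

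**Figure D2:**
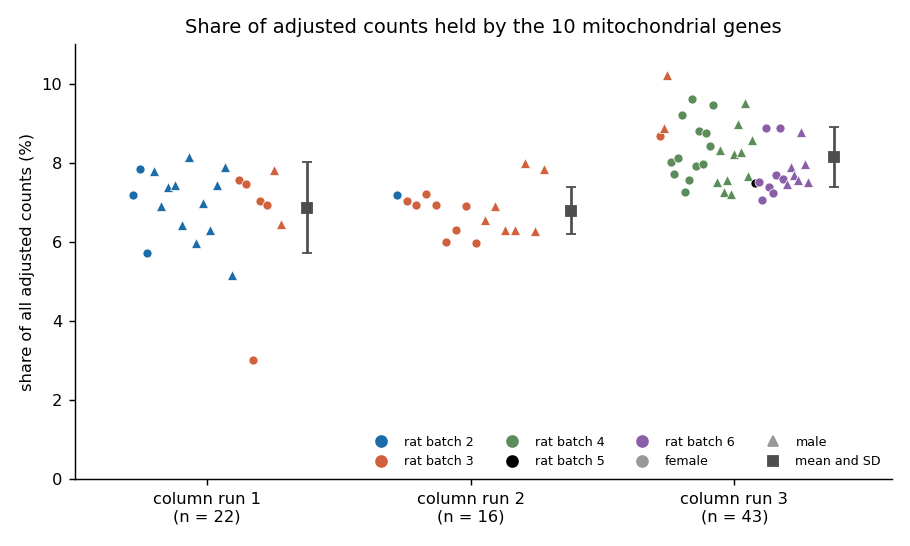
Share of all adjusted counts (%, y axis from 0) held by the 10 mitochondrial genes in each library, by column run; colors mark rat batches, circles females, triangles males, squares with bars the mean and SD of the run. The 3 libraries of batch 3 in run 3 sit between 8.68% and 10.2%, above the other libraries of batch 3, and female 35 stands alone at 3.02%.

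Single genes were then compared between runs by limma, fitted over all 17252 genes with rat batch and sex as terms and without the lone rat of batch 5 (n = 80). Of the 10 genes, 5 passed an adjusted p of 0.05 over the 3 runs, beside 16.8% of all genes tested: Mt-nd2, Mt-co1, Mt-atp6, Mt-co3 and Mt-cyb. All 5 were higher in run 3 than in run 1. Each adjusted p from this fit, and from the fit within batch 3 below, is of an F test over the 3 runs together. It is not a test of run 3 against run 1 alone. The median difference of run 3 from run 1 over the 10 genes was 0.53 log2 units, and over all genes it was -0.01. Under quantile normalization the median over the 10 genes was 0.18, and within batch 3 alone it went from 0.52 to 0.06. That method gives each gene the mean value at its rank, and all of the 10 but Mt-nd6 stood near the top of the table. A change in their level that leaves ranks as they were cannot show under it, here or below. The estimate of run 3 against run 1 rests on batch 3 and on 1 rat of batch 2 that was in run 2, since the other batches lay within a single run.

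Mt-co1 ran from 17.38 to 18.76 log2 units in run 1 (median 18.53), from 18.36 to 18.70 in run 2 (median 18.53) and from 18.53 to 19.11 in run 3 (median 18.66). Its values in run 3 overlapped those of both other runs, and within batch 3 they were 18.87, 18.91 and 19.11 against no more than 18.70 elsewhere in the batch. The difference of run 3 from run 1 was 0.59 ± 0.12 (SE; limma adjusted p = 0.00182). Mt-atp6 differed by 0.55 ± 0.15 (limma adjusted p = 0.0122) and Mt-co3 by 0.52 ± 0.13 (limma adjusted p = 0.0112).

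Mt-cyb was 0.58 ± 0.16 higher in run 3 than in run 1 (SE; limma adjusted p = 0.0163), with medians of 16.89, 16.94 and 17.01 in runs 1, 2 and 3. Mt-nd2 differed by 0.71 ± 0.22 (limma adjusted p = 0.0353), and was at medians of 16.36, 16.41 and 16.63. Both ranges overlapped between runs. The other 4 genes of the 9, Mt-nd1, Mt-nd4, Mt-nd5 and Mt-co2, had estimates from 0.35 to 0.57 with adjusted p from limma between 0.0684 and 0.137. Under quantile normalization the estimate for Mt-co2 turned to -0.04, Mt-nd2, Mt-co3 and Mt-cyb no longer passed, and Mt-co2 and Mt-nd4 did. Without female 35, Mt-nd2 was at 0.43 and no longer passed over the 3 runs (limma adjusted p = 0.0525), whereas Mt-nd4 and Mt-nd5 did. Run 3 differed from run 1 by 0.16 ± 0.12 (SE) for Mt-nd4 and by 0.32 ± 0.16 for Mt-nd5. In batch 3 the means of Mt-nd4 were then 16.78, 16.54 and 16.92 in runs 1, 2 and 3. The median over the 10 genes was 0.35. The estimates for Mt-cyb and Mt-nd1 were then 0.38 and 0.23, and that for Mt-co1 was 0.45.

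Mt-nd6 was the single gene whose estimate lay on the other side, at -0.84 ± 0.49 for run 3 against run 1 (SE; limma adjusted p = 0.423). Its median was 9.44 in run 1, 9.11 in run 2 and 8.69 in run 3, and its values overlapped between all runs.

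Within batch 3 alone (n = 25, sex as a term), 1 of the 10 genes passed over the 3 runs, beside 16.9% of all genes tested. It was Mt-co1, with a difference of run 3 from run 1 of 0.58 ± 0.17 (SE, limma adjusted p = 0.0458). Under quantile normalization the estimate was -0.09, but Mt-co1 held rank 1 in every library of runs 1 and 3. That method therefore could not show a difference in its level between these runs. The call was lost when any of the 3 libraries of run 3 was left out (limma adjusted p from 0.0735 to 0.164). Mt-nd6 was at 8.15, 8.60 and 8.65 in run 3, at 8.46 to 9.69 in run 2 and at 8.47 to 9.73 in run 1, with an estimate of -0.90 ± 0.27 (limma adjusted p = 0.0512). Its 3 values in run 3 lay at the low end of the batch but overlapped those of run 2. They overlapped run 1 only through female 35, without which run 1 began at 9.16.

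Female 35 belongs to batch 3 and to run 1, and it set the spread there. Without it, 9 of the 10 genes passed within batch 3, beside 18.1% of all genes tested, and the exception was Mt-nd1 (limma adjusted p = 0.0882). Of those 9, Mt-co1 was then 0.44 ± 0.09 higher in run 3 than in run 1 (limma adjusted p = 9.5e-04) and the difference for Mt-nd6 was -1.03 ± 0.24 (limma adjusted p = 0.0129). The 9 estimates other than that of Mt-nd6 were smaller than with female 35, from 0.12 for Mt-nd4 to 0.44. Mt-nd4 passed over the 3 runs with an SE of 0.10 on that estimate. Library preparation, sequencing lane and other properties of the runs are not in the labels and were not tested.

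**Figure D3:**
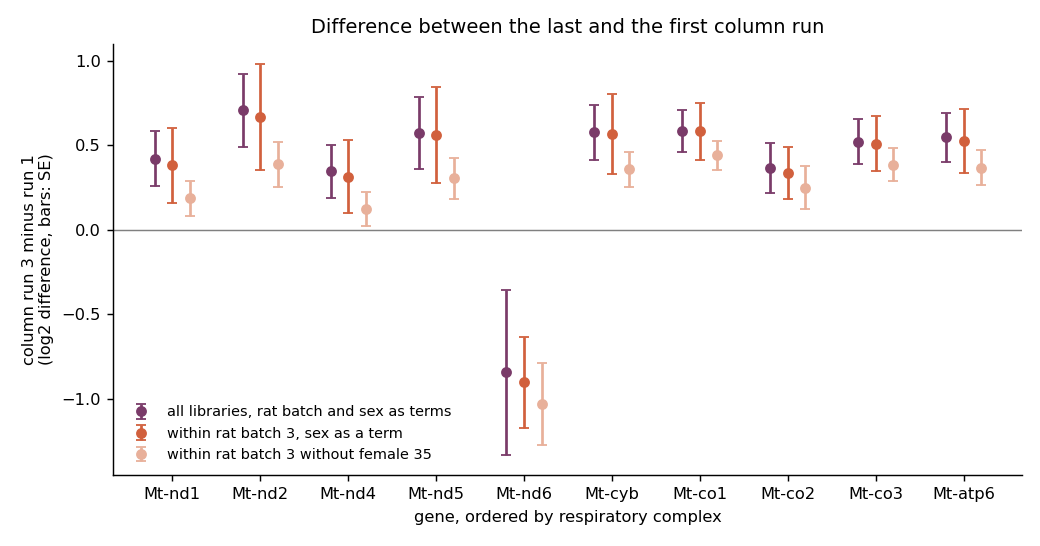
Difference of column run 3 from run 1 (log2 units, bars are SE) for each mitochondrial gene, from 3 limma fits given in the legend. Mt-nd6 lies below 0 in each of these fits, and the other 9 genes lie above. Their estimates are smaller and their bars shorter once female 35 is left out. Under quantile normalization, not drawn, Mt-co2 turns below 0 in the fit of all libraries. Within batch 3, Mt-co1, Mt-co2 and Mt-co3 do so under that method, which cannot show a change in level that leaves ranks as they were.

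Between rat batches 2, 3, 4 and 6, with sex as a term, 6 of the 10 genes passed in limma (n = 80), beside 57.6% of all genes tested: Mt-nd2, Mt-nd4, Mt-nd5, Mt-co1, Mt-co3 and Mt-atp6. Each adjusted p here is from an F test over these batches together, and not of batch 4 against batch 2 alone. Mt-nd5 had the largest difference of batch 4 from batch 2, at 0.45 ± 0.11 (SE; limma adjusted p = 1.1e-05). Its levels ran from 14.52 to 15.78 in batch 2 (median 15.35), from 13.44 to 16.07 in batch 3 (median 15.31), from 15.47 to 16.18 in batch 4 (median 15.73) and from 15.43 to 15.97 in batch 6 (median 15.63). The medians of batches 4 and 6 were above those of batches 2 and 3, and the ranges overlapped. Mt-nd2 differed between batches 4 and 2 by 0.42 ± 0.11 (limma adjusted p = 0.00212), and Mt-co3, at 0.22 ± 0.07 (limma adjusted p = 0.0339), turned to -0.01 under quantile normalization.

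The batch differences were no longer called once the column run was a term as well, in a fit of larger SEs. Batch and run are separated in it almost only by batch 3. For Mt-co1 the difference of batch 4 from batch 2 was 0.23 ± 0.07 (SE) without the run and -0.35 ± 0.14 with it. Whether the run accounts for the batch differences was not tested. With the run as a term, 0 of 10 genes passed in limma, beside 2.76% of all genes tested. An unadjusted p under 0.05 was found for 2 of the 10, Mt-co1 and Mt-co3. The median difference of batch 4 from batch 2 over the 10 genes went from 0.21 to -0.27. Under quantile normalization these medians were 0.03 and -0.07. Without female 35 the count given the run was again 0 of 10, with 5 genes at an unadjusted p under 0.05 and a median of -0.10. Batches 4 and 6, which lay in the same run, were also compared directly (n = 39). All 10 genes had lower estimates in batch 6, between -0.44 and -0.08, and 0 of 10 passed in limma, with 5 at an unadjusted p under 0.05 and 3.46% of all genes called. Under quantile normalization 6 of these 10 estimates were above 0.

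The share ran from 7.22% to 9.61% in batch 4 (median 8.17%) and from 7.07% to 8.88% in batch 6 (median 7.59%), with wide overlap. The mean of batch 6 differed from that of batch 4 by -0.44 percentage points (permutation test, two-sided, p = 0.0543). With the 10 genes and 100 other genes left out of the denominator, the same comparison gave -0.66 points (permutation test, p = 0.0407).

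Females and males overlapped over most of their ranges. The share ran from 3.02% to 9.61% in females (median 7.50%) and from 5.17% to 10.2% in males (median 7.57%). Within batches the mean of males was 0.16 percentage points higher (permutation test, two-sided, p = 0.489, n = 39 females and 41 males), and 0.06 points higher without female 35 (permutation test, p = 0.763). For Mt-co1 the medians were 18.61 in females and 18.62 in males, and for Mt-nd6 9.18 and 9.25.

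In limma with rat batch as a term (n = 81), 0 of the 10 genes passed between the sexes, none had an unadjusted p under 0.05, and 0.197% of all genes were called. The estimates for males against females lay between -0.18 and 0.06 log2 units, with SEs up to 0.17 for Mt-nd6 and 0.08 for the others. Their median was 0.04, and 0.0024 without female 35. With the first 5 components as terms, 9 of the 10 were below 0 (median -0.11), 0 passed, and 1332 of all genes were called in place of 34. With rat batch 3 left out, 9 of the 10 estimates were below 0, where 8 had been above. The interaction of sex with rat batch passed for 0 of 10 genes (0 at an unadjusted p under 0.05) and for 0% of all genes, of which 531 had an unadjusted p under 0.05.

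The position of Mt-nd6 was followed as a log2 ratio, its level minus the mean of the other 9 genes, in which the scaling of a library cancels. The ratio ran from -7.87 to -6.74 in run 1 (median -7.41), from -8.23 to -7.13 in run 2 (median -7.79) and from -9.93 to -6.72 in run 3 (median -8.22). Run 3 held both the lowest and the highest ratio, with an SD of 0.91 against 0.27 and 0.37 in runs 1 and 2. Male 14, the library of lowest depth, had the lowest ratio.

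Within batch 3 the 3 libraries of run 3 had ratios of -9.26, -8.60 and -8.47, each below all 22 other libraries of the batch, of which the lowest was -8.23. The ratio of run 3 differed from that of run 1 by -1.42 (exact permutation test, two-sided, p = 0.0167, adjusted p = 0.025), and differed by -1.06 from run 2 (exact permutation test, adjusted p = 0.00735). With each library of run 3 left out in turn, the difference from run 1 lay between -1.57 and -1.18, at an adjusted p of 0.0556 from the exact permutation test. That is the smallest p that 2 against 7 libraries can give, so this test could not pass. Run 2 differed from run 1 by -0.36 (exact permutation test, adjusted p = 0.033), and by -0.29 without female 35 (exact permutation test, adjusted p = 0.0855).

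The ratio did not pass between the sexes or between the batches within run 3. Males were at -0.21 from females within batches (permutation test, two-sided, p = 0.214) and batch 6 at -0.34 from batch 4 (permutation test, p = 0.277). In females the ratio ran from -9.44 to -6.72 with a median of -7.66, and in males from -9.93 to -6.74 with a median of -7.70.

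**Figure D4:**
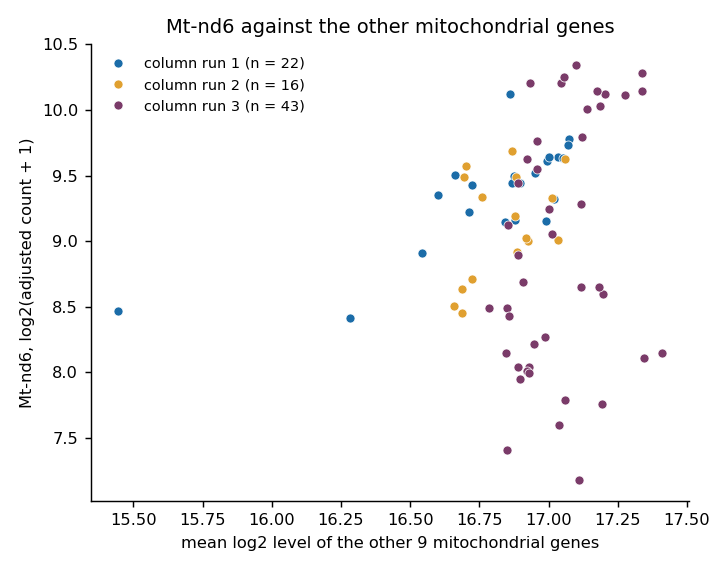
Log2 level of Mt-nd6 (y axis) against the mean log2 level of the other 9 mitochondrial genes (x axis), 1 point per library, colored by column run. The points of run 3 spread from 7.18 to 10.35 on the y axis at like levels of the other genes, while female 35 is the point at the far left, at 15.44.

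The spread of Mt-nd6 in run 3 was wide beside that of other genes, which were not matched to it by level. Its SD there was 0.95 log2 units, and 99.1% of the 13048 genes with a mean log2 level of at least 5 had a smaller SD, the median being 0.19. In runs 1 and 2 the SD of Mt-nd6 was 0.40 in each. Mt-co1 had a narrow spread in run 3, with an SD of 0.13, larger than in 20.4% of genes. Its SD was 0.11 in run 2 and 0.30 in run 1 (0.19 without female 35). In run 1 the SDs of Mt-nd2 and Mt-nd5 were 0.55 and 0.53, and without female 35 they were 0.30 and 0.34.

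The 9 genes other than Mt-nd6 moved together from rat to rat. After sex, rat batch and column run were subtracted, the 36 pairs among the 9 genes had Pearson's r from 0.48 to 0.97, with a median of 0.90 (Spearman's rho 0.53 to 0.95, n = 81), and all 36 passed (permutation test, adjusted over 45 pairs, p = 1.2e-05 for each, which rests on the smallest p these resamples can give). Mt-nd1 and Mt-nd2, subunits of complex I, were the closest pair (r = 0.97). Mt-co2 was the loosest of the 9, and its lowest r was 0.48 with Mt-nd5. The members share each library's scaling, and under quantile normalization the median of the 36 pairs was 0.48.

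Female 35 added to these correlations. Without it the median of the 36 pairs was 0.82. Within single runs the median was 0.93 in run 1 (n = 22; 0.84 without female 35), 0.80 in run 2 (n = 16) and 0.87 in run 3 (n = 43). Of the 36 pairs, 36, 33 and 36 passed in the 3 runs (permutation test, adjusted). With the 2 libraries farthest from the median left out of each pair, the medians were 0.80, 0.79 and 0.85.

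Mt-nd6 followed the others more loosely. Its 9 pairs had r from 0.26 to 0.60 with a median of 0.29 (Spearman's rho 0.24 to 0.60, median 0.28, n = 81), and all 9 passed (permutation test, adjusted p up to 0.0194). With the 2 farthest libraries left out, the median was 0.25, and under quantile normalization it was 0.10. The pairs were uneven over the runs: 9 of 9 passed in run 1 (7 without female 35), 1 of 9 in run 2 and 3 of 9 in run 3. Their median r was 0.73 in run 1 (0.66 without female 35), 0.29 in run 2 and 0.17 in run 3. With the 2 farthest libraries left out within each run, these medians were 0.42, 0.32 and 0.30. The partner with the highest r was Mt-co2, at 0.60 over all libraries, 0.74 in run 2 and 0.60 in run 3. The pair joins the member that was loosest among the 9 to the member from the opposite strand.

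Depth was examined for the share and the ratio within each run, as 6 relations. In run 3 the ratio of Mt-nd6 rose with the log2 of depth by Pearson's r = 0.46 (permutation test, adjusted p = 0.00558, n = 43). Spearman's rho was 0.35 (permutation test, adjusted p = 0.133), and r was 0.32 without the 2 libraries farthest from the median depth. The other 5 relations had r between -0.25 and 0.32 and did not pass (permutation test, adjusted p from 0.512 to 0.92).

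The wide spread of Mt-nd6 in run 3 went along with the leading component of all other genes in that run. The component was computed from genes with a mean log2 level of at least 5, without the 10 members, and it held 13.7% of their variance. This relation was examined after the spread had been seen. Pearson's r of Mt-nd6 with the component was 0.76 and Spearman's rho 0.73 (permutation test, adjusted over 30 relations, p = 1.5e-04 for each, which rests on the smallest p these resamples can give, n = 43), and r was 0.73 without the 2 farthest libraries. Within batch 4 r was 0.75 (permutation test, p = 6e-05, n = 24) and within batch 6 it was 0.79 (permutation test, p = 4.2e-04, n = 15). The scores were mostly positive in females and mostly negative in males, from -0.44 in male 14 to 0.26 in female 24. Sex was not subtracted here, and the relation was not examined within each sex. What the component stands for was not tested.

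Mt-co2 was the other member that followed this component in run 3, with r = 0.65 and rho = 0.66 (permutation test, adjusted p = 1.5e-04, n = 43). It also followed the leading component of run 2, with r = 0.72 and rho = 0.65 (permutation test, adjusted p = 0.0157, n = 16). The remaining members had r up to 0.40 in run 3, and none of them passed by r (permutation test, adjusted p of at least 0.0655), while Mt-atp6, Mt-co3 and Mt-nd5 passed by rho (adjusted p = 0.0299, 0.0424 and 0.0484). In run 1 none of the 10 passed by r or rho.

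**Figure D5:**
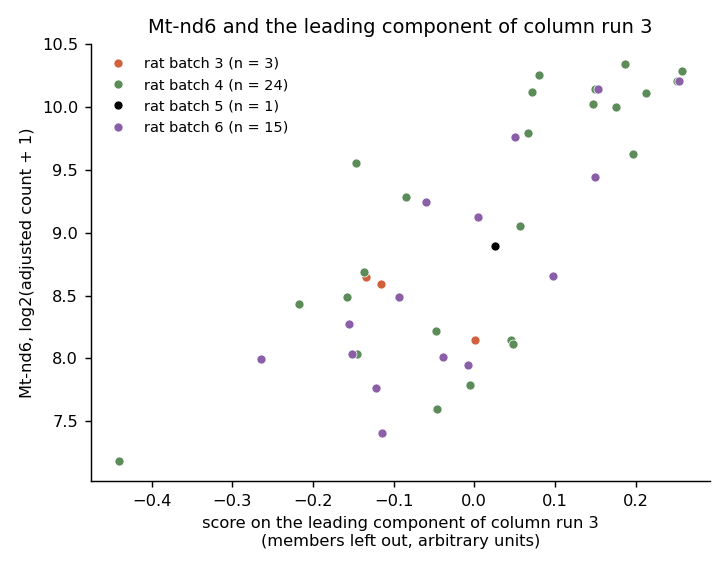
Log2 level of Mt-nd6 (y axis) against the score of each library of column run 3 on the leading component of the other genes (x axis, arbitrary units, sign set so that Mt-nd6 is positive), colored by rat batch (n = 43 libraries). The points rise from 7.18 at the left to 10.35 at the right, with r = 0.75 in batch 4 and 0.79 in batch 6.

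Among the 13038 other genes with a mean log2 level of at least 5, the pattern most like the mean of the 9 genes, after sex, batch and run were subtracted, was that of ENSRNOG00000033299 (r = 0.85, n = 81; 0.75 without female 35), followed by ENSRNOG00000031053 (r = 0.77; 0.63 without female 35). The most unlike was ENSRNOG00000052687 (r = -0.74; -0.69 without female 35). These genes carry no symbol in the files used here, so whether any is itself a mitochondrial gene outside the list could not be told. Over all these genes, 97 had r above 0.5 and 110 had r below -0.5, and without female 35 these counts were 34 and 101. For Mt-nd6 in run 3 (n = 43), where sex and batch were not subtracted, 1365 genes had r above 0.5 and 1496 had r below -0.5. These counts are therefore not on the same footing as those for the 9 genes.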

How the data were processed

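By the methods of the study, single-end reads were trimmed with cutadapt, and the authors estimated a read count per gene with RSEM on the Ensembl rat transcriptome, and applied an upper-quartile adjustment with DESeq2. The authors deposited log2 values of the adjusted count plus 1, for 17252 genes in 81 libraries. Genes with few reads had been dropped, as had 7 libraries that the labels mark as removed. The submitters' processing notes name Rnor_6.0, and tool versions are not given in the sources used here. No column was left unmatched.

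The members and all lists were chosen with earlier results of these data known. The symbols came with the list of identifiers, and 0 of 10 were found in the reference, so the lists of nuclear subunits, of genes for mitochondrial expression and of cell type markers could not be used. The genes named are the 10 members, and the genes most like and most unlike the mean of the 9 other than Mt-nd6; the count of genes like Mt-nd6 in run 3 and the relation to components were chosen after values were seen.

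The number of adjusted counts per read was estimated in each library from the spacing of low whole numbers. Depth was the total adjusted count divided by it. The values are not counts, so count models were left out. Differences are on the log2(value + 1) scale, where 1 is the pseudocount. Linear models over all genes used limma 3.58.1 (R 4.3.3) with an intensity trend and Benjamini-Hochberg adjustment, at a threshold of 0.05. On made-up data with known shifts, the fits for sex and rat batch found the shifted genes, whereas the fit of the runs within batch 3, which has 3 rats in run 3, missed nearly all of them, so a gene not called there may still differ. Single values were tested by exact permutation, or by 100000 resamples where groups were larger, within rat batch for sex. Correlations used 100000 permutations (numpy 2.4.6, scipy 1.17.1). P-values measure the spread between rats, and in bulk tissue fewer cells of a type and less RNA per cell cannot be told apart. The alternatives were a mean log2 level of at least 5, moderation without the trend or made robust, quantile normalization, median centring, a pseudocount of 10, a common total without the members, depth or run or components as terms, rat batches left out, and libraries left out.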

Additional observations from a re-analysis of the deposited data

Results flagged for a closer look

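In groups of 4 to 10 libraries, the lowest and highest value were compared with their nearest neighbor for the share, the Mt-nd6 ratio and the 10 genes, in 4 groups, giving 48 combinations. Chance alone marks about 1 in 20 such groups, and 11 were marked here, of which 10 were 1 library seen in values that move together.

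Female 35 stood apart from the other 6 rats of batch 3 in column run 1. Its share was 3.02%, with the next library at 6.45%. Its log2 levels were 17.38 for Mt-co1, 16.16 for Mt-co2 and 16.21 for Mt-co3 of complex IV. They were 16.14 for Mt-atp6 and 15.25 for Mt-cyb. For the complex I genes they were 15.04 (Mt-nd1), 14.16 (Mt-nd2), 15.22 (Mt-nd4) and 13.44 (Mt-nd5), and the nearest library was 1.94 log2 units above for Mt-nd2. Mt-nd6 was not marked in this library, at 8.47. Its depth, 14.3 M reads, was the lowest of its run, where the rats of batch 2 began at 14.5 M.

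Male 33 had the highest share among the 7 males of batch 6, 8.78%, with the next at 7.96%.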

How the results depend on the processing

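The counts of genes passing kept within 1.5 times, or at 0, for sex, batch, run given batch, batch given run, batches 4 and 6 and the interaction. Within batch 3 the count of 1 was 2 with a mean log2 level of at least 5 and with a common total without the members, 0 without the intensity trend, with robust moderation, with a pseudocount of 10 and with depth as a term, and 9 without female 35, an alternative added after the data were seen. It was 0 without each library of run 3 in turn. With median centring the 1 gene was Mt-nd6 and not Mt-co1. By quantile normalization the difference of batch 4 from batch 2 became -0.0101 for Mt-co3, that of run 3 from run 1 given batch -0.0357 for Mt-co2, and within batch 3 -0.0895 for Mt-co1, -0.152 for Mt-co2 and -0.0200 for Mt-co3. That method sets each value to the mean over libraries at its rank, and the 9 members other than Mt-nd6 hold top ranks. A change in their level that leaves ranks as they were cannot show under it. The median r was then 0.476 for the 36 pairs and 0.0998 for the 9 pairs with Mt-nd6, and without female 35 it was 0.822 for the 36. For the share within batch 3, run 2 minus run 1 was -0.44 without female 35, and batch 6 minus batch 4 was -0.66 with the members and 100 genes out of the denominator. Run 3 minus run 1 ranged from 2.16 to 2.94 points for the share and from -1.57 to -1.18 for the ratio without each library of run 3, with 2 against 7 libraries. The ratio of run 2 minus run 1 was -0.29 without female 35. Signs of estimates that did not pass changed under 26 of 170 combinations of gene and alternative for sex and 6 of 90 for batches 4 and 6. With a common total without the members, 67.1% of the genes called between runs were higher in run 3, against 51.7%, and between batches 63.0% were higher in batch 4, against 48.5%; within batch 3 the split was 59.6% against 47.3%, and for batches 4 and 6 it was 78.9% (53.0% with median centring) against 68.2%. No paired analysis was possible because every rat gave a single library and the replicate numbers are only names.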
